A study of Mus musculus with 6 samples.

Results

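The 44 genes described here are interferon-stimulated genes, which type I interferons induce in most nucleated cells. They were fixed as a list of symbols, each symbol matched 1 gene of the 31253 in the count matrices, and all 44 were found. The list was chosen with earlier results of these data known. Counts of its genes set beside the share of all genes are therefore descriptions and not independent support. Their UMI counts (unique molecular identifiers, 1 per captured messenger RNA molecule) were followed through the cell types of mouse blood and compared between diabetic and control mice. The T2D group was male mice of 12 to 13 weeks that received intraperitoneal streptozotocin (STZ), a toxin of insulin-producing beta cells, and the series title gives the model as HFD/STZ, HFD being a high-fat diet. The Con group was male mice of the same age that received intraperitoneal saline. No source used here gives the diet of the Con mice or the strain, so the effects of diet, toxin and diabetes cannot be told apart. Each group held 3 libraries of peripheral blood mononuclear cells, and no label says whether a library came from 1 mouse or from a pool, so p-values measure the spread between these libraries only.

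Type I interferons bind the receptor of Ifnar1 and Ifnar2 and activate the kinases Jak1 and Tyk2, which phosphorylate Stat2. Stat2 acts with Irf9 at a short promoter motif, the interferon-stimulated response element. The induced genes fall into groups by role: signal transducers and feedback genes (Stat2, Irf9, Irf7, Usp18, Isg15), sensors of foreign nucleic acid (Ifih1, Dhx58, Zbp1, Eif2ak2, the Ifi200 family), and antiviral effectors (the Ifit and Oas families, Rsad2, Bst2). The list holds these and other genes: Ifit1, Ifit2, Ifit3, Ifit3b, Isg15, Rsad2, Rtp4, Oasl1, Oasl2, Oas1a, Oas2, Oas3, Irf7, Usp18, Cmpk2, Ifi44, Slfn1, Slfn2, Slfn5, Slfn8, Stat2, Irf9, Ifih1, Dhx58, Herc6, Parp9, Parp14, Dtx3l, Bst2, Xaf1, Zbp1, Trim30a, Trim30d, Ifi203, Ifi204, Ifi209, Ifi213, Eif2ak2, Rnf213, Samd9l, Sp100, Tor3a, Ifi35 and Ifi27l2a. Many of these genes have a low level in resting blood cells that depends on the cell type, and interferon gamma or other signals can also raise several of them.

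The Ifit genes lie side by side on chromosome 19 (GRCm38), with Ifit2 at chr19:34550694-34576419, Ifit3 at chr19:34583531-34588731, Ifit3b at chr19:34607970-34613401 and Ifit1 at chr19:34640871-34650009, all on the plus strand. Ifit3 and Ifit3b are near-identical copies: their longest annotated transcripts share 1663 of 1697 aligned bases (98.0%), and their promoter windows 259 of 260 (99.6%). The libraries read the 3′ end, where the copies differ more: of the stretches of 50 bases in the last 500 bases of the Ifit3 transcript, 14.9% also occur in Ifit3b, so UMIs from the shared stretches may be counted under either gene. Of the stretches in the last 500 bases of Ifit3b, 1.8% occur in any other gene. Promoter windows of 300 bases (250 before to 50 after the start site, RefSeq, GRCm38.p6) were given for 34 of the 44 genes. The letters GAAA, any 2 bases and GAAA again, searched on both strands with overlaps allowed as a short form of the response element, occurred in the windows of 17 of these 34 genes (50%), against 3.99% of 27025 genes with a window. Stretches around the matches are printed for Ifit3b, which was called in neutrophils, for its neighbours Ifit3 and Ifit1, and for Isg15 and Rsad2 as examples from other gene families. Each is written from 5′ to 3′ on the gene's strand with matches in capitals.
Ifit1 (chr19:34640770-34640828, plus strand): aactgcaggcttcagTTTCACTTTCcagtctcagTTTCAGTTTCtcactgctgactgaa
Ifit3 (chr19:34583358-34583431, plus strand): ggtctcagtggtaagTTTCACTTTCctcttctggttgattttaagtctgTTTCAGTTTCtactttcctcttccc
Ifit3b (chr19:34607754-34607827, plus strand): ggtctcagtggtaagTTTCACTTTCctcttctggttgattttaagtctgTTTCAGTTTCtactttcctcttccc
Isg15 (chr4:156200860-156200911, minus strand): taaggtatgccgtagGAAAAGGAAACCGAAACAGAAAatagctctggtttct
Rsad2 (chr12:26456548-26456587, minus strand): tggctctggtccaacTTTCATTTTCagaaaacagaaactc
The printed stretches of Ifit3 and Ifit3b are the same letters, and Ifit1 holds the same pair of 10-letter words in the same order at a shorter distance. In the Isg15 window 3 matches overlap in 1 run. A match describes the letters in the window and does not show that a factor binds there.

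Cells were assigned to types by lineage markers, none of which is among the 44 genes, and each type is called a gate. The matrices held 49407 barcodes, of which 49025 passed the filters, and 41776 of these fell into 8 gates with at least 30 cells in every library: B, CD4 T, CD8 T, NK, classical monocyte, non-classical monocyte, neutrophil and platelet. Library totals were 29329361, 32321855 and 29712873 UMIs in T2D and 25580045, 23574052 and 27157764 UMIs in Con. Levels are given as CPM, the UMIs of a gene per 1000000 UMIs of the gate in that library. Each gate carried its own marker list far above the other gates, for example the T list at 4977 CPM in CD4 T cells and 105.5 CPM in B cells. This follows from the assignment by the same lists. Of genes outside the lists, Ighm was at 6824 CPM in B cells and 447.6 CPM in CD4 T cells. S100a8 was at 19620 CPM in neutrophils and 291.3 CPM in classical monocytes, and Nkg7 at 3243 CPM in NK cells and 667.8 CPM in CD8 T cells. Lyz2 was at 30280 CPM in classical and 12090 CPM in non-classical monocytes. Libraries shared 65 to 89 barcodes per pair, and no pair of libraries matched within sampling noise. Eosinophils (56 cells), conventional dendritic cells (18 cells) and plasmacytoid dendritic cells (4 cells) were too few to describe.

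The level of the 44 genes without the diabetes model depended strongly on the cell type. In the Con libraries their summed level was 7902 ± 365 CPM (SD, n = 3 in each gate) in classical monocytes and 5382 ± 310 in neutrophils, against 4640 ± 156 in B cells, 4502 ± 260 in CD4 T cells, 4223 ± 191 in CD8 T cells, 3385 ± 179 in NK cells, 2820 ± 490 in non-classical monocytes and 1071 ± 73.4 in platelets. Of the 44 genes, 22 were highest in classical monocytes and 11 in neutrophils, and 36 had the same highest gate in the T2D libraries. The neutrophil genes were Isg15, Rsad2, Rtp4, Oasl1, Oasl2, Oas2, Oas3, Slfn1, Slfn2, Trim30a and Trim30d. Slfn8, Ifi203 and Samd9l were highest in B cells, Ifit3b, Herc6 and Ifi213 in CD8 T cells, Ifit1 and Ifit2 in platelets, Ifi44 in CD4 T cells, Sp100 in NK cells and Ifi35 in non-classical monocytes. For 27 genes every Con library of the highest gate lay above every Con library of the next gate. Sums of B, CD4 T and CD8 T cells were close to each other, while classical monocytes stood above and platelets below the other gates in each Con library.

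**Figure D1:**
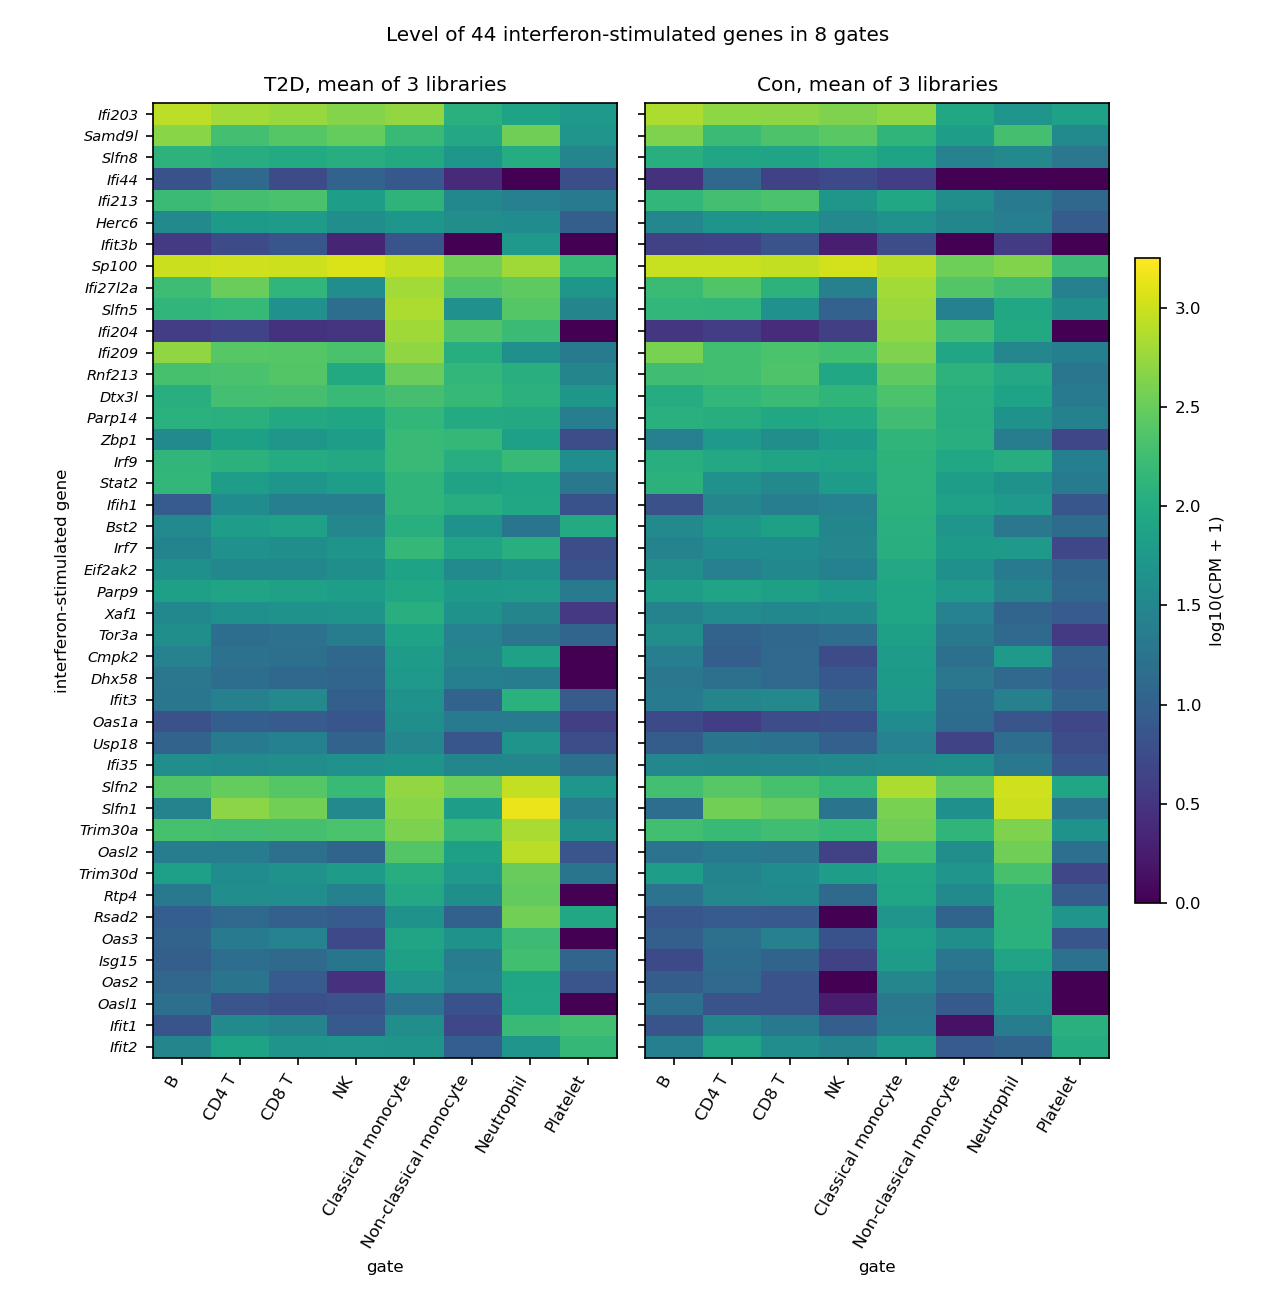
Mean level of the 44 genes (rows, grouped by the gate in which Con is highest) in 8 gates (columns), on the scale log10(CPM + 1), with the mean of 3 T2D libraries on the left and of 3 Con libraries on the right. The columns of classical monocytes and neutrophils hold most of the high values, and genes such as Ifi204 and Slfn1 differ by gate far more than by group.

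Each gate was tested against the mean of the other 7 gates in the Con libraries with edgeR's quasi-likelihood test, for which 9300 genes were tested and 42 of the 44 passed the filter on low counts. In classical monocytes 41 of the 42 were higher and none lower, where 35.2% of all genes tested were higher. Their median log2 difference was 1.72, against 0.23 over all genes. With barcodes passing several gates left out, 30 of 40 were higher and 0 lower, with a median of 1.59 against 0.09 over all genes. The share of all genes called in that setting is not set beside this count. Ifi204, a DNA-binding protein of the Ifi200 family, was at 490.2, 578 and 517 CPM in Con classical monocytes, a log2 difference of 7.003 ± 0.13 (adjusted p = 2.82e-58). The oligoadenylate synthetase gene Oas2 was at 28.2, 32.6 and 32.4 CPM (3.58 ± 0.50, adjusted p = 4.55e-09). Slfn5, a schlafen family gene, was at 585, 646 and 480.3 CPM (3.38 ± 0.22, adjusted p = 2.18e-09), and its mean of 570.4 CPM was 4.03 times that of the next gate, B cells. For Oasl2, a relative of the oligoadenylate synthetases, the values were 183, 192 and 183 CPM (2.95 ± 0.14, adjusted p = 6.13e-32).

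Non-classical monocytes did not share this. There 7 of 42 genes were higher and 10 lower, where 24% and 11.7% of all genes were. Ifi204 stood at 206, 138 and 195 CPM (5.30 ± 0.24, adjusted p = 1.62e-32) and was the second highest of the gates. Zbp1, a sensor of left-handed nucleic acid, was at 102, 87.4 and 136 CPM (1.74 ± 0.21, adjusted p = 6.01e-11). The RNA sensor gene Ifih1 was at 91.4, 51.0 and 74.7 CPM (1.67 ± 0.25, adjusted p = 6.72e-08). Oas2, at 28.2, 0 and 13.3 CPM (2.77 ± 0.80), passed with an adjusted p of 0.0040, which was 0.509 without Con 1.

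Neutrophils also carried part of the list at high level, in part the same genes as classical monocytes. Oasl2, Oas2 and Ifi204 were among the 4 largest differences in both gates, and Ifi204 was lower in neutrophils than in either monocyte gate. Over all 6 libraries the neutrophil gate also held the classical monocyte list at 2419 CPM, against 12240 CPM in classical monocytes. Csf1r was at 157.3 CPM in neutrophils and 876.6 CPM in classical monocytes. The part of monocyte transcripts in the neutrophil levels, that of Ifi204 among them, was not tested. In neutrophils 19 of 42 genes were higher and 4 lower, where 28.7% and 19.4% of all genes were. With barcodes passing several gates left out, 17 of 40 were higher and 4 lower. Rsad2, whose product viperin makes an antiviral nucleotide, was at 119, 177 and 68.0 CPM (4.77 ± 0.28, adjusted p = 1.29e-17). Oasl2 reached 318, 432 and 297 CPM (4.53 ± 0.14, adjusted p = 1.12e-44). Oas2 (32.8, 35.1 and 71.6 CPM, 4.58 ± 0.51, adjusted p = 2.07e-12) and Ifi204 (92.1, 76.5 and 107 CPM, 4.57 ± 0.30, adjusted p = 1.04e-23) completed the 4 with the largest differences. Wherever they are given here, the fitted differences of Rsad2, Oas2, Oasl1, Ifi204, Zbp1 and Ifit1 are set in part against nearly empty gates. These are NK cells or platelets, or for Ifit1 non-classical monocytes, whose Con libraries together had 0 or 1 UMI of the gene. The size of these differences therefore depends on the fit's prior count. Slfn1 averaged 969.9 CPM in Con neutrophils, 392.4 CPM in classical monocytes and 13.8 CPM in B cells.

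In B, CD4 T and CD8 T cells the share of members called higher was no larger than that of all genes. Among the genes named for these gates, Ifi203, Samd9l and Ifi213 were highest in a lymphocyte gate. In the Con mean Ifi209 (419.7 CPM) and Rnf213 (287.2 CPM) were highest in classical monocytes, Oasl1 (42.45 CPM) and Slfn1 in neutrophils, and Ifit1 and Ifit2 in platelets. In B cells 15 of 42 were higher and 12 lower, where 43% and 21.4% of all genes were. The Ifi200 family genes Ifi209 (395, 402 and 396 CPM, 1.67 ± 0.10, adjusted p = 1.16e-23) and Ifi203 (723, 679 and 715 CPM, 1.57 ± 0.07, adjusted p = 4.00e-34) and the translation regulator gene Samd9l (442, 406 and 413 CPM, 1.52 ± 0.09, adjusted p = 6.29e-26) led this gate together with Oasl1 (15.3, 14.5 and 13.7 CPM, 1.86 ± 0.48, adjusted p = 4.47e-04). In CD4 T cells 15 were higher and 9 lower (37.8% and 21.8% of all genes), led by Slfn1 at 374, 367.5 and 338 CPM (1.98 ± 0.12, adjusted p = 1.50e-17). Ifi213 followed with 204, 192 and 175 CPM in CD4 T cells (1.75 ± 0.12, adjusted p = 1.04e-23), then Ifit2 with 80.9, 73.2 and 77.4 CPM (1.27 ± 0.20, adjusted p = 1.39e-05) and Ifit1 with 33.1, 30.8 and 25.3 CPM (1.08 ± 0.22, adjusted p = 1.51e-05). CD8 T cells had 12 higher and 6 lower (39.9% and 22.2% of all genes), with Ifi213 at 215, 212 and 205 CPM (1.95 ± 0.11, adjusted p = 1.35e-28) and Slfn1 at 307, 277 and 297 CPM (1.69 ± 0.12, adjusted p = 2.44e-15). Ifi203 at 514, 486 and 460.4 CPM (1.03 ± 0.08, adjusted p = 5.19e-21) and the ubiquitin ligase gene Rnf213 at 221, 250.1 and 206 CPM (0.94 ± 0.10, adjusted p = 2.54e-13) came next.

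NK cells and platelets were low for most of the genes. NK cells had 4 of 42 higher and 16 lower, where 23.4% and 15.5% of all genes were. The 4 were Slfn8 (109, 79.7 and 117.5 CPM, 0.61 ± 0.18, adjusted p = 0.0053, which was 0.256 without Con 3), Samd9l (223, 280.2 and 288 CPM, 0.58 ± 0.14, adjusted p = 2.87e-04), the nuclear body gene Sp100 (968, 1141 and 1066 CPM, 0.56 ± 0.11, adjusted p = 3.65e-05) and Ifi203 (406, 470.5 and 386 CPM, 0.54 ± 0.10, adjusted p = 6.33e-06). In platelets 3 were higher and 18 lower, where 14.5% and 21.5% of all genes were. The 3 were Ifit1 (129.7, 61.4 and 152 CPM, 3.81 ± 0.44, adjusted p = 4.26e-12), Rsad2 (35.4, 38.4 and 70.0 CPM, 3.03 ± 0.80, adjusted p = 0.0027) and Ifit2 (118, 107 and 81.7 CPM, 2.35 ± 0.57, adjusted p = 0.0028). Both Ifit1 and Ifit2 were highest in platelets of all gates in the Con mean, while Ifit3 had only 3 UMIs over the Con platelets. For Ifit2 the lowest platelet library (81.7 CPM) barely exceeded the highest CD4 T library (80.9 CPM). Platelets hold few RNA molecules (median 817 UMIs per barcode), and 1 UMI is worth 7.67 to 11.8 CPM in a Con platelet library.

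In T2D the summed level of the 44 genes lay above that of Con by 1.12 to 1.20 times in B, CD4 T, CD8 T and NK cells and by 1.63 times in neutrophils. B cells had 5196 ± 122 CPM in T2D and 4640 ± 156 CPM in Con (SD, n = 3 in each group here and below). CD4 T cells had 5395 ± 37.3 CPM in T2D and 4502 ± 260 CPM in Con, and CD8 T cells 4799 ± 71.5 CPM in T2D and 4223 ± 191 CPM in Con. NK cells had 3894 ± 155 CPM in T2D and 3385 ± 179 CPM in Con, and neutrophils 8763 ± 2471 CPM in T2D and 5382 ± 310 CPM in Con. In these 5 gates every T2D library lay above every Con library. Classical monocytes (8617 ± 755 CPM in T2D and 7902 ± 365 CPM in Con), non-classical monocytes (3363 ± 225 CPM in T2D and 2820 ± 490 CPM in Con) and platelets (1337 ± 457 CPM in T2D and 1071 ± 73.4 CPM in Con) overlapped between the groups. In bulk sums of a gate, more cells with the transcripts and more transcripts per cell cannot be told apart.

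Gene by gene, edgeR's quasi-likelihood test in each gate gave 20 calls at an adjusted p under 0.05 among 277 tests of a member in a gate, 19 higher and 1 lower in T2D. They fell on 14 genes, 5 of which were called in 2 or more gates and 1, Slfn1, in 3. The log2 fold change was positive in 230 of the 277. All gates share the same 6 libraries, so they are not independent repeats. The median log2 fold change of the members tested was 0.17 in B, 0.22 in CD4 T, 0.18 in CD8 T, 0.21 in NK, 0.17 in classical monocytes, 0.22 in non-classical monocytes and 0.77 in neutrophils, where the median over all genes lay between −0.01 and 0.01. Only members that passed the filter on low counts enter these medians. Because the members were chosen with earlier results of these data known, these medians and the counts below are not independent of the data. A positive value was found for 38 of 44 members in B cells, 38 of 44 in CD4 T cells and 33 of 43 in CD8 T cells, beside 49.7%, 49.9% and 48.9% of all genes. Every T2D library lay above every Con library for 18 of 44 members in B cells, 19 of 44 in CD4 T cells and 13 of 43 in CD8 T cells, beside 11.9%, 19.5% and 14.9% of all genes. The same counts were 7 of 28 in NK cells, 7 of 42 in classical monocytes, 6 of 34 in non-classical monocytes and 1 of 3 in platelets, beside 6.71%, 6.65%, 6.85% and 6.1% of all genes.

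**Figure D2:**
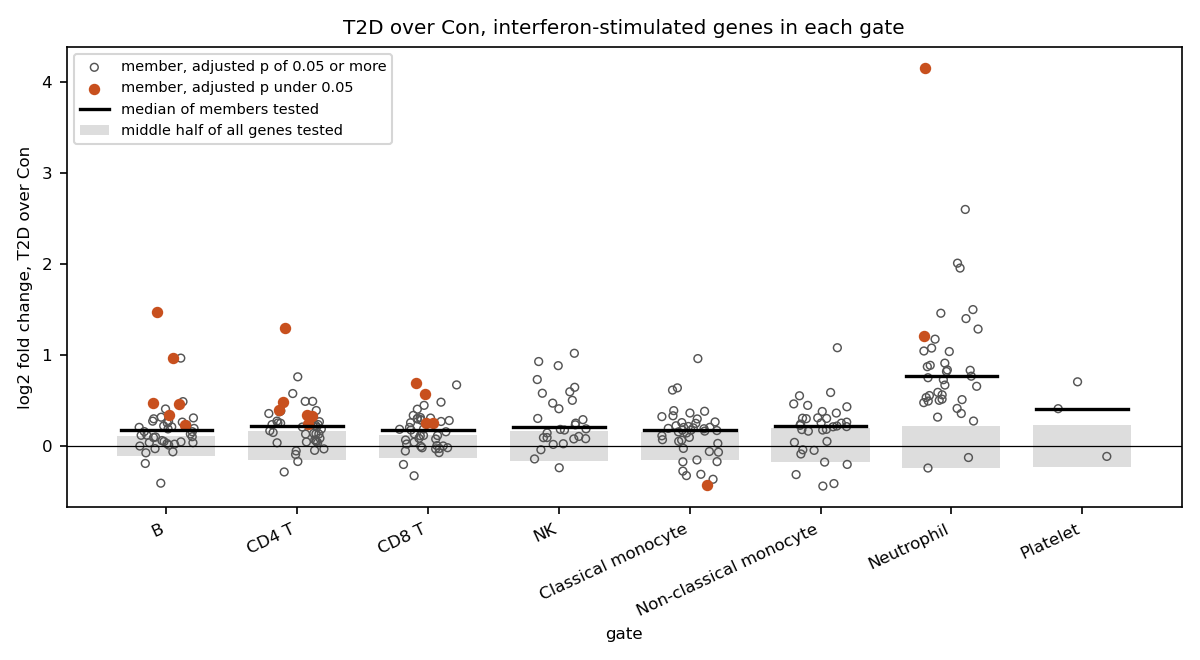
Log2 fold change, T2D over Con, of each interferon-stimulated gene tested in each gate (points, filled where the adjusted p was under 0.05), with their median (black line) and the range between the quartiles of all genes tested (grey bar). In neutrophils the median is 0.77 and the highest point is Ifit3b at 4.15, a gene with 4 UMIs in all Con neutrophils, while in the other nucleated gates the medians lie between 0.17 and 0.22.

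In neutrophils, 39 of the 44 genes passed the filter, 2 were called higher and none lower, where 0.68% of all genes tested were called and 0.302% were called higher. Of the 39, 37 had a positive log2 fold change (41 of 43 with no filter), against 48.6% of all genes, and 17 had every T2D library above every Con library, which 7.74% of all genes did. Rtp4, which encodes a receptor-transporting protein and is induced by interferon, was at 354, 288 and 234 CPM in T2D, against 129.5, 128 and 107 CPM in Con. The groups did not overlap, and the log2 fold change was 1.21 ± 0.21 (adjusted p = 0.015). The adjusted p of Rtp4 was 0.102 at its highest when a library was left out, with the call lost without Con 1 or T2D 2. Ifit3b had 25, 23 and 19 UMIs in T2D neutrophils and 1, 2 and 1 in Con neutrophils. Its summed counts per UMI of the gate were 18.01 times those of Con (exact 95% interval 6.72 to 68.0, counting error only), with a fitted log2 fold change of 4.15 ± 0.64 (adjusted p = 0.0092, lost without Con 1). Ifit3b passed the filter on low counts through the T2D libraries alone, so a gene with its counts could enter the test only by differing. Both calls were lost when barcodes passing several gates were left out, a setting that kept 50, 121 and 100 T2D and 143, 140 and 56 Con neutrophils. The levels there were 304, 304 and 212 CPM in T2D and 103, 131 and 97.0 CPM in Con for Rtp4 (1.23, adjusted p = 0.137), and Ifit3b, with 11, 13 and 3 UMIs in T2D and 1, 1 and 0 in Con, no longer passed the filter.

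Ifit3 itself was at 246, 77.1 and 35.1 CPM in T2D neutrophils and 14.04, 39.9 and 21.5 CPM in Con neutrophils (2.01 ± 0.92, adjusted p = 0.633). T2D 1 was far above the other libraries, and T2D 3 lay below Con 2. Counted together, Ifit3 and Ifit3b gave 346, 111 and 72.1 CPM in T2D, against 15.6, 43.1 and 25.1 CPM in Con, without overlap. Ifit1 had 262, 165 and 29.2 CPM in T2D and 17.2, 30.3 and 21.5 CPM in Con (2.60 ± 0.91, adjusted p = 0.494), and T2D 3 again lay below Con 2.

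Among the other neutrophil genes, Rsad2 was at 532, 305 and 251 CPM in T2D and 119, 177 and 68.0 CPM in Con (1.46 ± 0.40, adjusted p = 0.246), without overlap. Oasl2 was at 1128, 716 and 594.5 CPM in T2D and 318, 432 and 297 CPM in Con (1.17 ± 0.26, adjusted p = 0.068), and its lowest T2D library exceeded its highest Con library. Slfn1, at 1510, 1524 and 1205 CPM in T2D and 909.6, 944 and 1056 CPM in Con, had a smaller fold (0.53 ± 0.18, adjusted p = 0.306). Rsad2 and Oasl2 were called by DESeq2, with no filter and with the replicate block. In all, 23 of the 39 had an unadjusted p under 0.05, which 9.05% of all genes did, and Rtp4 and Ifit3b were those that passed over all genes. T2D 1 gave the highest of the 6 libraries for 34 of 43 genes detected, and without it the median of the members tested was 0.61, with 37 of 39 positive. Median UMIs per neutrophil were 2338, 2320.5 and 2440 in T2D and 2205, 2394 and 2559 in Con, so depth overlapped. The neutrophil marker list was higher in T2D neutrophils (64360 to 81000 CPM) than in Con (59590 to 62610 CPM), as were the monocyte list (2661 to 2904 against 2048 to 2379 CPM over 13 genes, none at 0) and the NK list (34.1 to 56.5 against 12.8 to 29.6 CPM over 7 genes, none at 0). The part of these lists in the result was not tested. Neutrophils are mostly lost in the density separation of mononuclear cells, so the 109 to 265 cells per library are a remnant of that population.

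**Figure D3:**
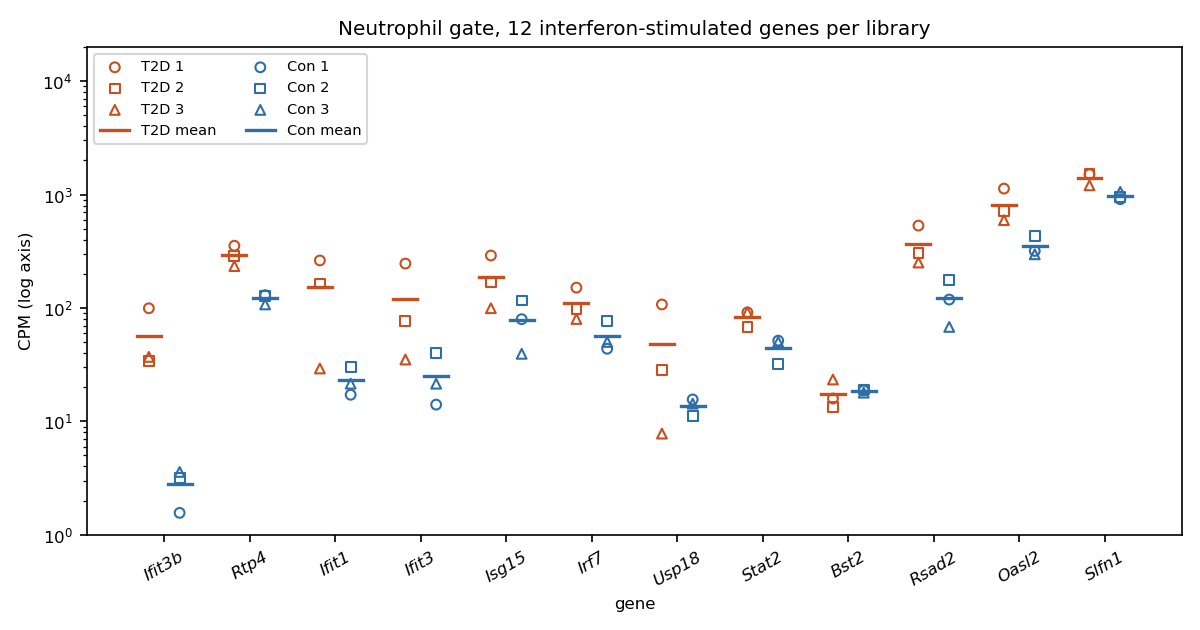
CPM of 12 interferon-stimulated genes in the neutrophil gate (log axis), with 1 point per library, T2D to the left of Con for each gene, and the group mean as a bar. Ifit3b is below 4 CPM in each Con library and at 34.1 CPM or more in each T2D library. T2D 1 is the top library for most genes, and Ifit1, Ifit3, Isg15, Usp18 and Bst2 overlap between the groups.

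In B cells 6 of the 44 genes were called, all higher in T2D, where 0.886% of all genes were called higher and 1.79% in either direction. Slfn1 was at 27.4, 27.7 and 26.8 CPM in T2D B cells and 15.3, 13.0 and 13.1 CPM in Con B cells. The groups lay far apart, and the log2 fold change of 0.97 ± 0.10 (adjusted p = 2.40e-04) held without any 1 library. Slfn1 is high in T cells, and the T cell list was higher in T2D B cells too (115 to 122 CPM in T2D and 74.6 to 101 CPM in Con, none of 7 genes at 0). When the B cells with any UMI of the T list were left out, which kept 19820 of 25941 cells, the log2 fold change of Slfn1 was 0.96 and the call stayed. The NK list also moved with the group in B cells (32.2 to 43.1 CPM in T2D and 15.8 to 24.3 CPM in Con), and its part was not tested.

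Ifi209 was at 498.5, 491 and 534 CPM in T2D B cells and 395, 402 and 396 CPM in Con B cells (0.34 ± 0.05, adjusted p = 0.0041, lost without Con 2). Of the stretches of 50 bases in its last 500 bases, 63.4% also occur in Ifi214, so its counts may hold those of that gene. Ifi203, with 849, 837 and 833 CPM in T2D and 723, 679 and 715 CPM in Con (0.24 ± 0.05, adjusted p = 0.032), showed the same separation at a smaller fold. Zbp1 was at 36.0, 32.3 and 35.6 CPM in T2D and 27.2, 23.1 and 23.9 CPM in Con (0.47 ± 0.09, adjusted p = 0.012). Oasl2 stood at 24.01, 22.6 and 21.2 CPM in T2D and 17.4, 15.7 and 15.6 CPM in Con (0.46 ± 0.10, adjusted p = 0.030). Ifi44, at 8.63, 3.90 and 4.35 CPM in T2D and 2.16, 1.599 and 2.24 CPM in Con, had the largest fold of the gate (1.47 ± 0.31, adjusted p = 0.032). Zbp1 lost its call without Con 2 or Con 3, and Ifi203, Oasl2 and Ifi44 each lost theirs without any 1 of at least 4 libraries. Ifit1 overlapped between the groups, being at 6.29, 4.62 and 7.04 CPM in T2D B cells and 6.65, 5.05 and 6.31 CPM in Con B cells.

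In CD4 T cells 7 of 44 genes were called higher and none lower, where 3.41% of all genes were called higher and 7.13% in either direction. Ifi209 (259, 261 and 248 CPM in T2D, 196, 182 and 173 CPM in Con, 0.40 ± 0.08, adjusted p = 8.20e-04) and Slfn1 (441, 488 and 509.6 CPM in T2D, 374, 367.5 and 338 CPM in Con, 0.34 ± 0.07, adjusted p = 0.0021) kept their calls without any 1 library. Dtx3l, a ubiquitin ligase that works with Parp9, was at 202, 178 and 182 CPM in T2D and 143, 141 and 138 CPM in Con (0.33 ± 0.08, adjusted p = 0.0088, lost without T2D 1). The annotated spans of Dtx3l and Parp9 overlap on opposite strands, and whether the counting used strand is not known here. Ifi203 was at 603.5, 605.5 and 652 CPM in T2D and 495, 498 and 493 CPM in Con (0.25 ± 0.06, adjusted p = 0.017), with Con libraries almost equal to each other. Stat2, the transducer specific to this receptor family, was at 68.2, 59.1 and 61.0 CPM in T2D and 52.6, 38.4 and 38.0 CPM in Con (0.48 ± 0.13, adjusted p = 0.017). Its partner Irf9 was at 117, 119 and 126 CPM in T2D and 89.1, 91.0 and 95.3 CPM in Con (0.32 ± 0.09, adjusted p = 0.022). Oas1a, at 7.71, 8.49 and 8.77 CPM in T2D and 1.95, 1.34 and 5.63 CPM in Con (1.30 ± 0.38, adjusted p = 0.030), shares 56.1% of the stretches at its 3′ end with Oas1g. As for Ifit3b in neutrophils, Oas1a passed the filter on low counts through the T2D libraries. A gene with its Con counts could enter the test only by being higher in T2D. Ifi203, Stat2, Irf9 and Oas1a each lost their calls without any 1 of at least 3 libraries, and Stat2, Irf9 and Oas1a did so in DESeq2. That of Stat2 was also lost when barcodes passing several gates were left out.

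In CD8 T cells 43 genes were tested and 4 called, all higher, where 1.1% of all genes were called higher and 2.47% in either direction. Stat2 was at 49.4, 53.6 and 48.2 CPM in T2D and 36.2, 31.7 and 31.0 CPM in Con (0.57 ± 0.11, adjusted p = 0.0029). Usp18, which removes Isg15 from proteins and dampens the receptor, was at 24.6, 25.1 and 27.0 CPM in T2D and 17, 15.2 and 13.99 CPM in Con (0.69 ± 0.14, adjusted p = 0.0050). Both calls held without any 1 library and in every other setting tried. Slfn2, which keeps resting T cells quiescent in mice, was at 257, 240.2 and 239 CPM in T2D and 210.3, 197 and 190 CPM in Con (0.26 ± 0.07, adjusted p = 0.033). Slfn1, at 324, 361 and 402.5 CPM in T2D and 307, 277 and 297 CPM in Con (0.25 ± 0.07, adjusted p = 0.045), was the least separated of the 4, and both schlafen calls were lost in DESeq2 and without any 1 of at least 4 libraries. That of Slfn2 was also lost when barcodes passing several gates were left out. The NK list was higher in T2D than in Con in CD4 T cells (52.2 to 92.6 against 35.1 to 48.2 CPM) and in CD8 T cells (137 to 223 against 82.3 to 107 CPM). The monocyte list was higher too, at 107 to 142 against 47.7 to 91.1 CPM in CD4 T cells and 95.4 to 114 against 57.4 to 82.0 CPM in CD8 T cells. The part of these lists in the T cell results was not tested. With the replicate number as a block, 9 members were called in B cells and 6 in CD8 T cells, without the share of all genes called in that setting beside them. The genes added were Isg15, Irf9 and Slfn2 in B cells and Irf9 and Xaf1 in CD8 T cells.

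Classical monocytes differed in direction for their only call. Slfn2 was at 555, 525 and 513.5 CPM in T2D and 671.5, 764 and 699 CPM in Con, and fell by 0.43 ± 0.10 on the log2 scale (−0.43, adjusted p = 0.031), where 0.457% of all genes were called lower, 0.365% higher and 0.822% in either direction. Slfn2 was 1 of 3 members with every T2D library below every Con library, beside 6.62% of all genes. It lost the call without any 1 of 4 libraries and when barcodes passing several gates were left out (−0.33). Among the 42 genes tested there, 31 had a positive log2 fold change against 49.9% of all genes. Slfn5 (718, 668 and 738 CPM in T2D and 585, 646 and 480.3 CPM in Con) and Oas2 (44.3, 48.6 and 52.5 CPM in T2D and 28.2, 32.6 and 32.4 CPM in Con) had no overlap but did not pass. The monocyte list was itself higher in T2D classical monocytes, at 12710 to 14430 CPM against 10910 to 11660 CPM in Con. No member was called in NK cells (28 tested, 25 positive, 4 with an unadjusted p under 0.05), in non-classical monocytes (34 tested, 26 positive, 1 under 0.05) or in platelets (3 tested, 2 positive, 0 under 0.05), by edgeR or by DESeq2. An unadjusted p under 0.05 was found for 8.74%, 7.24% and 5.43% of all genes in these 3 gates. Of all genes, 0.433% were called in NK cells (0.217% higher), 0.715% in non-classical monocytes (0.232% higher) and 0% in platelets, and 49.6%, 51% and 48.3% had a positive log2 fold change there.

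A set of 6 genes was followed through every gate: the transducer Stat2, the transcription factor Irf7, the ubiquitin-like Isg15, its protease Usp18, Ifit3, and Bst2, a membrane protein that tethers virus particles. Stat2 was at 142, 135 and 143 CPM in T2D and 128, 122 and 115 CPM in Con B cells, and at 138, 128 and 131 CPM in T2D and 134, 125 and 115 CPM in Con classical monocytes. Its neutrophil values were 91.4, 68.2 and 91.6 CPM in T2D and 51.5, 31.9 and 50.1 CPM in Con (0.89 ± 0.26, adjusted p = 0.210). The groups of Stat2 were apart in B, CD4 T, CD8 T and neutrophils, and overlapped in NK cells (69.4, 60.3 and 64.1 CPM in T2D and 57.0, 61.7 and 62.1 CPM in Con), non-classical monocytes (64.9, 69.6 and 83.0 CPM in T2D and 75.2, 72.8 and 45.3 CPM in Con) and platelets (18.5, 7.50 and 30.6 CPM in T2D and 11.8, 15.3 and 35 CPM in Con).

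Irf7, which drives later waves of interferon production, was highest in classical monocytes, at 187, 125 and 125 CPM in T2D and 113, 107 and 115 CPM in Con (0.36 ± 0.15, adjusted p = 0.432). Neutrophils had 151, 97.9 and 79.9 CPM in T2D and 43.7, 76.5 and 50.1 CPM in Con (0.84 ± 0.31, adjusted p = 0.366). These were the gates in which the groups did not overlap. Elsewhere Irf7 overlapped, with 64.9, 75.8 and 92.1 CPM in T2D and 59.1, 43.7 and 72.0 CPM in Con non-classical monocytes, 48.1, 40.9 and 40.6 CPM in T2D and 36.0, 45.9 and 30.6 CPM in Con CD4 T cells, and 35.1, 44.9 and 43.2 CPM in T2D and 36.2, 37.2 and 39.0 CPM in Con CD8 T cells. NK cells had 35.7, 54.7 and 51.8 CPM in T2D and 22.8, 30.9 and 39.9 CPM in Con, and B cells 28.4, 27.6 and 29.4 CPM in T2D and 30.1, 24.2 and 27.8 CPM in Con. In platelets it was seen in 1 T2D library (15.3 CPM) and 1 Con library (11.8 CPM).

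Isg15 was higher in every T2D than in every Con library of B cells (9.33, 10.7 and 5.84 CPM in T2D and 5.41, 4.29 and 3.57 CPM in Con, 0.96 ± 0.23, adjusted p = 0.055) and NK cells (17.9, 18.2 and 15.8 CPM in T2D and 0, 5.14 and 4.43 CPM in Con, not tested because of low counts). It overlapped in neutrophils (290.0, 169 and 99.4 CPM in T2D and 79.6, 116 and 39.4 CPM in Con), in classical monocytes (97.0, 61.4 and 47.5 CPM in T2D and 62.5, 72.2 and 51.8 CPM in Con) and in non-classical monocytes (47.6, 8.19 and 13.6 CPM in T2D and 22.8, 14.6 and 16.0 CPM in Con). Among T cells the values were 12.0, 13.8 and 15.6 CPM in T2D and 18.5, 10.7 and 9.85 CPM in Con for CD4 T, and 13.4, 14.4 and 9.45 CPM in T2D and 12.6, 12.1 and 6.06 CPM in Con for CD8 T. Platelets gave 9.25, 22.5 and 0 CPM in T2D and 23.6, 0 and 23.3 CPM in Con, which are counts of a few UMIs.

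Usp18 was separated in CD8 T cells, as given above, and in no other gate. Its neutrophil values ranged widely in T2D (107, 28.2 and 7.80 CPM) beside 15.6, 11.2 and 14.3 CPM in Con, and it did not pass the filter there. Classical monocytes had 25.2, 36.4 and 29.98 CPM in T2D and 36.1, 26.4 and 18.1 CPM in Con, CD4 T cells 18.5, 17.9 and 24.6 CPM in T2D and 23.4, 13.4 and 13.7 CPM in Con, and B cells 11.03, 7.80 and 10.2 CPM in T2D and 9.66, 7.07 and 7.71 CPM in Con. NK cells (9.46, 12.6 and 7.88 CPM in T2D and 9.11, 2.57 and 15.5 CPM in Con), non-classical monocytes (8.65, 6.15 and 4.53 CPM in T2D and 8.06, 0 and 2.67 CPM in Con) and platelets (0, 14.99 and 0 CPM in T2D and 0, 15.3 and 0 CPM in Con) held few UMIs.

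Ifit3 outside neutrophils did not separate. It was at 51.5, 54.3 and 31.2 CPM in T2D and 55.5, 58.2 and 44.02 CPM in Con classical monocytes, 36.8, 32.7 and 28.2 CPM in T2D and 45.8, 35.9 and 16.6 CPM in Con CD8 T cells, and 21.9, 27.1 and 25.2 CPM in T2D and 40.9, 24.98 and 21.5 CPM in Con CD4 T cells. B cells had 19.6, 15.2 and 19.2 CPM in T2D and 22.3, 17.2 and 21.4 CPM in Con. The 4 log2 fold changes tested in B, CD4 T, CD8 T and classical monocytes lay between −0.29 and −0.03 and none passed. NK cells (7.36, 14.03 and 4.50 CPM in T2D and 9.11, 20.6 and 0 CPM in Con), non-classical monocytes (4.33, 8.19 and 16.6 CPM in T2D and 8.06, 7.28 and 26.7 CPM in Con) and platelets (0, 22.5 and 0 CPM in T2D and 0, 7.67 and 23.3 CPM in Con) were not tested.

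Bst2 overlapped between the groups in all 8 gates. Its highest level was in classical monocytes (152, 103 and 81.2 CPM in T2D and 118, 119 and 109 CPM in Con), followed by CD8 T cells (73.9, 74.2 and 63.5 CPM in T2D and 68.8, 67.3 and 69.5 CPM in Con) and CD4 T cells (68.2, 67.3 and 55.7 CPM in T2D and 49.2, 55.8 and 50.7 CPM in Con). Non-classical monocytes (43.3, 55.3 and 39.2 CPM in T2D and 33.6, 43.7 and 69.3 CPM in Con), B cells (35.5, 38.8 and 30.2 CPM in T2D and 36.4, 32.6 and 32.9 CPM in Con) and NK cells (24.2, 36.5 and 31.5 CPM in T2D and 34.2, 33.4 and 22.2 CPM in Con) lay lower. In neutrophils Bst2 was at 15.9, 13.3 and 23.4 CPM in T2D and 18.7, 19.1 and 17.9 CPM in Con (−0.13 ± 0.43, adjusted p = 0.968). Platelets had 18, 16 and 0 UMIs of Bst2 in T2D and 0, 2 and 2 UMIs in Con.

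Whether the T2D effect differed between gates was tested as the effect in a gate minus the mean effect of the other 7, over 10000 genes. A single result of 352 passed, Bst2 in platelets (3.04 ± 0.69, adjusted p = 0.040), where 0.08% of all genes were called in this gate. In the other gates 0.04% were called in B cells, 0.49% in CD4 T cells, 0.04% in CD8 T cells, 0.01% in NK cells, and 0.02% in classical and in non-classical monocytes. It rests on those few UMIs, the library T2D 3 had none, and the call was lost without any 1 of 5 libraries and under median-of-ratios scaling. With barcodes passing several gates left out the value turned to −8.70 (adjusted p = 0.543). In neutrophils 39 of the 44 differences were positive, against 51.7% of all genes, with a median of 0.59 and 16 with an unadjusted p under 0.05 (8.42% of all genes), but none passed (0.28% of all genes did). For Ifit3b, Ifi44, Oasl1 and Ifi204 the standard error far exceeded the estimate in every gate, so these genes could not pass. The other gates include platelets, where low counts gave differences of −7.96 to −8.92 for Rtp4, Cmpk2, Oas3 and Dhx58. For Ifi44 and Oas2 they were 6.47 and 6.53. These values shift the differences of those genes in the other gates, so the positive count and median are descriptions only. For the genes that could pass, the larger neutrophil effect is not shown to differ gene by gene from that of the other cell types.

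A summed level can come from all cells of a gate or from a few, so each cell was thinned to 1000 UMIs and counted when it had UMIs of at least 3 of 9 features (Ifit1, Ifit2, Ifit3 or Ifit3b, Isg15, Rsad2, Oasl1, Usp18, Cmpk2, Ifi44). In neutrophils their share was 17.02%, 7.33% and 2.19% of T2D neutrophils, against 0.427%, 2.95% and 2.22% of Con neutrophils (37 of 509 and 10 of 561 cells, with 66 T2D and 70 Con cells left out as shallower, and shares without thinning of 22.9%, 13.9% and 6.80% in T2D and 3.02%, 5.84% and 5.50% in Con). Such cells occurred in other gates too. In classical monocytes the shares without thinning were 23.9%, 18.3% and 14.2% in T2D and 18.8%, 14.5% and 10.8% in Con. Those cells had more UMIs (median 7014, against 2325 in neutrophils), so the unthinned shares of the 2 gates are not at equal depth. After thinning, every T2D library of classical monocytes lay below every T2D library of neutrophils, and the Con libraries of the 2 gates overlapped. In neutrophils T2D 1 and T2D 2 lay above and T2D 3 among the Con libraries. The difference of 6.98 percentage points had a two-sided exact permutation p of 0.3 (0.8 adjusted over 8 gates, where 0.1 is the smallest that 20 assignments of the libraries allow), and it was 2.89 points without T2D 1. These 4.39% of neutrophils held 72.9% of the Ifit3 UMIs of the gate, 71.0% of those of Ifit3b and 63.7% of those of Ifit1. They held 19.0% of the UMIs of Rtp4, 8.37% of those of Slfn1 and 6.79% of those of Slfn2. The cut is a point on a scale and not a cell type: the features themselves define the cells, and their share of UMIs follows in part from that.

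In the other gates the shares were 0.833%, 1.86% and 1.71% in T2D and 2.78%, 3.45% and 0.943% in Con classical monocytes, 0.332%, 0.583% and 1.02% in T2D and 0.562%, 0.814% and 0.799% in Con CD4 T cells, and 0.474%, 0.781% and 0.422% in T2D and 0.270%, 0.499% and 0.108% in Con CD8 T cells. B cells had 0.273%, 0.302% and 0.654% in T2D and 0.445%, 0.385% and 0.507% in Con. Non-classical monocytes had 0 of 295 T2D and 0 of 262 Con cells, NK cells 2 of 767 T2D and 1 of 379 Con cells, and platelets 1 of 98 T2D and 0 of 101 Con barcodes. No gate passed, and the groups overlapped in each of these gates as well as in neutrophils. In B cells the 0.422% of such cells held 33.1% of the Ifit1 UMIs of the gate. Of 9 genes checked for UMIs in the same cells as Ifit3, Slfn5 was chosen after its values were seen. Among B cells with an Ifit3 UMI, 28.8% to 52.9% per library also had a UMI of Slfn5, which is not among the 9 features, against 8.31% to 9.61% of B cells without one. In CD4 T cells the same shares were 38.5% to 57.1% and 8.67% to 12.2%, and in CD8 T cells 4.55% to 25% and 2.74% to 4.62%, which overlap. Cells with an Ifit3 UMI were few, 7 to 28 CD4 T and 10 to 42 CD8 T cells per library. For some other genes the ranges overlapped too, such as Bst2 in B cells (3.64% to 20% of cells with an Ifit3 UMI and 2.54% to 3.78% of those without), Slfn2 in CD8 T cells (10% to 31.0% and 16.4% to 22.1%) and Irf7 in CD8 T cells (0% to 12.5% and 3.08% to 4.43%).

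**Figure D4:**
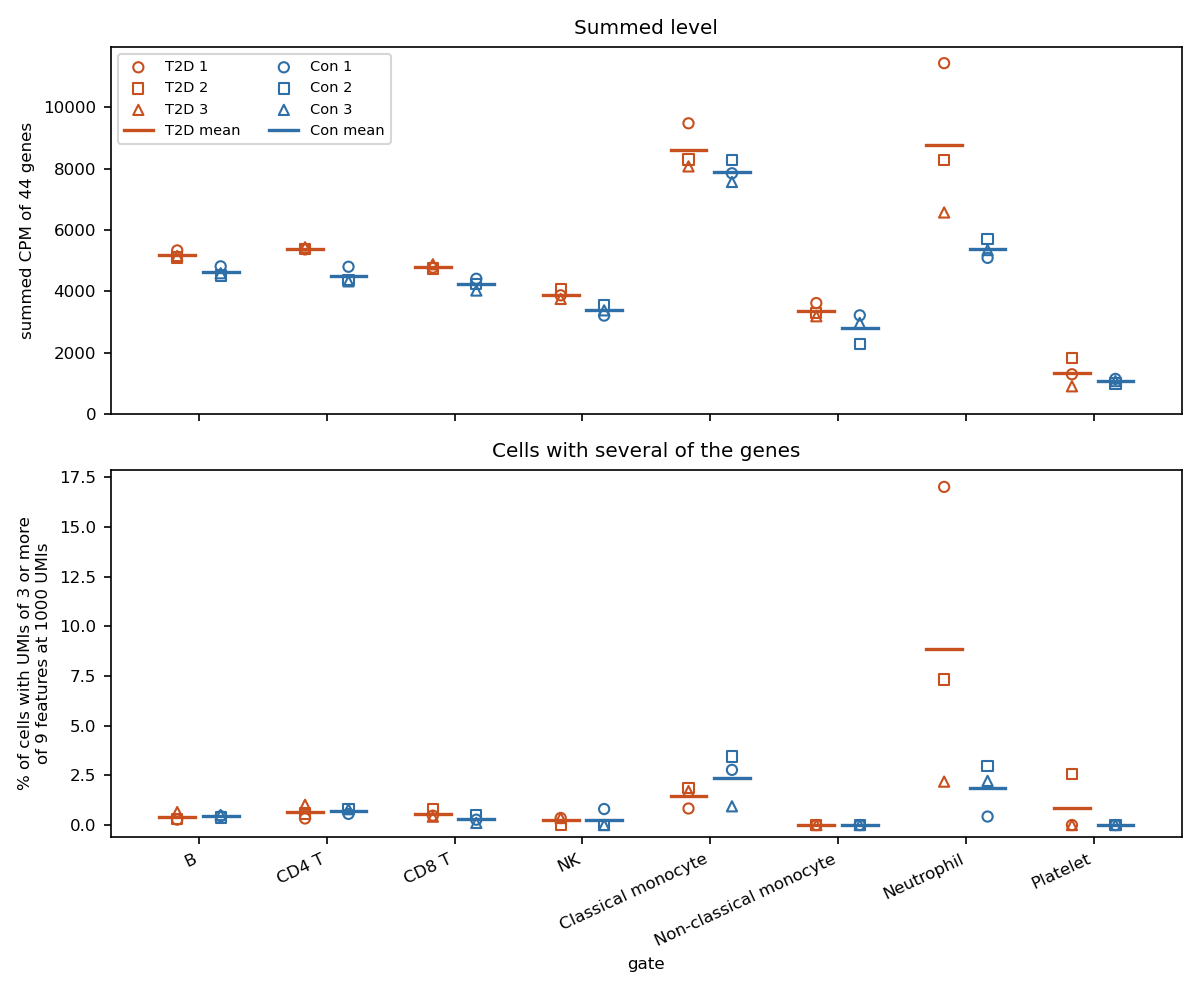
Summed CPM of the 44 genes (top) and percent of cells with UMIs of at least 3 of 9 features after thinning to 1000 UMIs (bottom) in each gate, with 1 point per library, T2D to the left of Con, and the group mean as a bar. The T2D neutrophil libraries spread from 6571 to 11440 summed CPM and from 2.19% to 17.02% of cells, while Con neutrophils lie between 5091 and 5708 CPM.

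The wider pathway was read from lists of ligands, receptors and transducers, negative regulators, nucleic acid sensors and genes mostly induced by interferon gamma. Of 21 interferon ligand genes, 14 had no UMI in any gate and the type I and type III genes together had 42 UMIs. Ifng, the type II ligand, had 1207. It was at 13.8, 10.9 and 17.2 CPM in T2D and 3.84, 6.34 and 6.06 CPM in Con CD8 T cells (1.30 ± 0.23, adjusted p = 0.0014). In CD4 T cells it was at 23.1, 9.44 and 10.96 CPM in T2D and 6.33, 4.01 and 3.87 CPM in Con (1.54 ± 0.38, adjusted p = 0.021, lost without any 1 Con library). NK cells, where Ifng is highest, had 168, 129 and 122.6 CPM in T2D and 232, 170 and 250.5 CPM in Con, and it fell there (−0.64 ± 0.15, adjusted p = 0.034, lost without any 1 of 4 libraries).

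Of the 19 genes mostly induced by interferon gamma, 18 were tested and 10 rose in CD4 T cells, 18 were tested and 8 rose in CD8 T cells, 18 were tested and 3 rose in B cells, and 11 were tested and 1 (Igtp) rose in classical monocytes. Of all genes tested, 3.41% were called higher in CD4 T cells, 1.1% in CD8 T cells, 0.886% in B cells and 0.365% in classical monocytes. This list too was chosen with earlier results of these data known. Most of these interferon gamma list calls were lost without at least 1 library. Only Gbp3, Gvin1 and Iigp1 in CD4 T cells and Gbp2 and Irf1 in CD8 T cells kept theirs, and none did in B cells or classical monocytes. For the other lists, the share of all genes called in either direction was 1.79% in B cells, 7.13% in CD4 T cells, 2.47% in CD8 T cells, 0.433% in NK cells and 0.715% in non-classical monocytes. None of the 19 genes mostly induced by interferon gamma fell in any gate. None of these 19 was called in NK cells (14 tested), non-classical monocytes (5 tested), neutrophils (8 tested) or platelets (1 tested). The guanylate-binding protein gene Gbp3 was at 29.3, 24.5 and 28.3 CPM in T2D and 11.7, 9.37 and 12.0 CPM in Con CD4 T cells (1.23 ± 0.19, adjusted p = 8.54e-05). The transcription factor gene Irf1 was at 253, 209.8 and 259 CPM in T2D and 166, 179.5 and 172 CPM in Con CD8 T cells (0.43 ± 0.07, adjusted p = 7.07e-04). Of 13 receptor and transducer genes, Irf1 rose in CD4 T cells (0.24 ± 0.07, adjusted p = 0.047) and in CD8 T cells, and the receptor chain gene Ifngr2 fell in CD4 T cells (131, 144 and 147 CPM in T2D and 195, 229.7 and 186 CPM in Con, −0.61 ± 0.08, adjusted p = 1.03e-05), while none was called in the other 6 gates. Among the 21 sensor genes found, Sting1 (101, 87.5 and 102 CPM in T2D and 66.7, 62.9 and 64.0 CPM in Con, 0.51 ± 0.10, adjusted p = 0.0011) and Irak4 (0.62 ± 0.17, adjusted p = 0.017) rose in CD4 T cells and Irf8 (0.44 ± 0.10, adjusted p = 0.032) in NK cells, and none was called elsewhere. Of 9 negative regulators none rose, Irf2bp2 fell in B cells (−0.31 ± 0.07, adjusted p = 0.045), CD8 T cells (−0.31 ± 0.08, adjusted p = 0.035) and non-classical monocytes (−1.19 ± 0.23, adjusted p = 0.0046), and Pias1 fell in CD4 T cells (−0.25 ± 0.08, adjusted p = 0.049). The calls of Gbp3, Sting1 and Ifngr2 in CD4 T cells and of Irf1 in CD8 T cells held without any 1 library. Those of Irf1, Irak4 and Pias1 in CD4 T cells, Irf8 in NK cells, Igtp in classical monocytes and Irf2bp2 in each gate were lost without at least 1 library.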

How the data were processed

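Single-cell libraries of blood mononuclear cells, after density separation and red cell lysis, were made with the BD Rhapsody whole-transcriptome workflow from the 3′ end of transcripts, per the labels' protocols. The authors deposited 1 matrix of whole-number UMI counts for each library, not normalized. Per the submitters' processing notes, Seurat, UMI-tools and CASAVA 1.8 were used with mm10. The aligner, annotation and strand setting: not given in the sources used here. Totals set a floor: the lowest barcode had 501 to 503 UMIs in each library.

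Kept barcodes had 200 or more genes detected and no more than 20% of UMIs from mitochondrial genes. A gate needed 3 UMIs over 2 markers. Barcodes passing several gates (13.5%) went to the list with at least 4 times the UMIs of each other list passed and were otherwise left out (3370). CD4 and CD8 T cells needed at least 1 UMI of Cd4, or of Cd8a or Cd8b1, and none of the other. No doublet caller was run. UMIs were summed per library and gate and tested with edgeR 4.0.16 (R 4.3.3, robust quasi-likelihood, TMM, filterByExpr, Benjamini-Hochberg over all genes tested, threshold 0.05), by group in each gate, between gates with the library as a block, and for the interaction. DESeq2 1.42.0 was an alternative. Each ± after a log2 value is a standard error. Intervals cover counting error only. For B cells, leaving out barcodes with a UMI of the T list was chosen after seeing the data. Other alternatives were median-of-ratios scaling, no filter, a gate of 5 UMIs, barcodes passing several gates left out, each library left out, T2D in place of Con between gates, thinning to 500 UMIs and at least 2 features. The fits were tested on simulated data.

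Named genes are the members past 0.05 in a gate (at most 8), the 4 largest positive between-gate differences, and Stat2, Irf7, Isg15, Usp18, Ifit3 and Bst2 everywhere. Rsad2, Oasl2, Ifit1 and Slfn1 in neutrophils, Ifit1 in B cells, and Slfn5 and Oas2 in classical monocytes were chosen after their values were seen. Members and lists were chosen with earlier results of these data known. Replicate numbers carry no stated pairing, but same-numbered libraries deviated together in B cells (r = 0.30, 0.33 and 0.19 for numbers 1, 2 and 3, across 3564 genes) and CD8 T cells (0.34, 0.21 and 0.15, across 3465 genes), and not in every pair of the other gates.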

Additional observations from a re-analysis of the deposited data

Results flagged for a closer look

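The T2D effect on Bst2 in platelets minus the mean effect in the other gates was 3.04 on the log2 scale (adjusted p = 0.040), the only member whose effect differed between gates by the interaction test. It rests on 18, 16 and 0 UMIs in T2D and 0, 2 and 2 UMIs in Con platelets. With barcodes passing several gates left out the value was −8.70 (adjusted p = 0.543).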

How the results depend on the processing

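Counts of called members moved with the settings. The share of all genes called in each setting is not set beside these counts. Whether the members moved more than all genes cannot be read from them. With no filter on low counts they were 11 in B cells, 7 in CD8 T cells, 3 in classical monocytes and 8 in neutrophils. DESeq2 called 2 in CD8 T cells and 4 in neutrophils. Leaving out barcodes passing several gates gave 0 in classical monocytes and 0 in neutrophils, with fewer cells, and 14 positive of 18 tested in non-classical monocytes and 1 of 2 in platelets, where no filter gave 22 of 41. The replicate block gave 9 in neutrophils and 2 in classical monocytes, where the libraries share only a number, 8 in CD4 T cells and 0 in NK cells, non-classical monocytes and platelets. Leaving out 1 library at a time gave 1 to 7 calls in B cells (1 without Con 2), 3 to 8 in CD4 T cells, 2 to 5 in CD8 T cells, 0 to 2 in classical monocytes and 0 to 6 in neutrophils (0 without Con 1, 6 without T2D 3). Members with a positive fold change then ranged from 33 to 41 in B, 34 to 40 in CD4 T, 30 to 39 in CD8 T, 22 to 26 in NK, 26 to 35 in classical monocytes, 23 to 27 in non-classical monocytes, 37 to 40 in neutrophils and 2 to 4 in platelets. Calls between gates ranged from 166 to 179 beside 191. The interaction gave 0 calls with median-of-ratios scaling, 2 with no filter, 0 with barcodes passing several gates left out, where the Bst2 value turned to −8.70, and 0 to 2 without 1 library. The share of cells with several of the genes in NK cells differed by 0.651 points with at least 2 features, and in non-classical monocytes by 0.253 points with 5 UMIs per gate. Without 1 library the share differences ranged from −0.158 to 0.0324 points in B, −0.267 to 0.0769 in CD4 T, 0.156 to 0.370 in CD8 T, −0.167 to 0.236 in NK, −1.65 to −0.393 in classical monocytes, 0 in non-classical monocytes, 2.89 to 10.3 in neutrophils and 0 to 1.28 in platelets. Median-of-ratios scaling moved the median between-gate difference of all genes from −0.93 to −0.63 in platelets and from 0.04 to −0.10 in neutrophils, and the counts of higher members there stayed at 3 and 19. The causes were not tested. A count of 0 in the smallest gate, platelets, allows up to 22.5 to 45.9 CPM per library.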
